A study of Mus musculus with 6 samples.

Results

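The simple epithelial keratins Krt8, Krt18, Krt7 and Krt19 and the basal keratins Krt14 and Krt5 were followed in cultured lung mesenchymal stromal cells (LMSCs) taken at successive stages of mammary tumor development. These 6 genes were picked by name from the 34745 genes of the table. They were picked with their levels at the different stages already known, so that every stage difference of theirs is given here as a description and carries no test.

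The cells came from the lungs of MMTV-PyMT mice. Here the mouse mammary tumor virus promoter drives the polyoma middle T oncogene in the mammary epithelium, so that mammary tumors form and spread to the lung. All 6 RNA-seq libraries carried this transgene, and no wild-type library was analysed here. There were 2 libraries from mice of 6 to 7 weeks at the adenoma stage (A-LMSCs, labelled E), 2 from mice of 9 to 10 weeks at the late pre-metastatic stage (PM-LMSCs, labelled L) and 2 from mice of 13 to 14 weeks at the metastatic stage (M-LMSCs). Age and tumor stage therefore cannot be told apart. The cells had been released from digested lungs, kept as adherent cells, depleted of CD45+ cells with magnetic beads and grown to passage 3, and no treatment is named for them. The study describes the libraries of a stage as coming from separate mice, and the labels number them 1 and 2 at each stage. The ages are those of the labels, and the methods of the study give slightly older mice for the adenoma and pre-metastatic stages. One further library per stage belongs to the study and was not analysed here.

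Keratins are the intermediate filament proteins of epithelial cells. A filament is built from pairs of 1 acidic type I chain and 1 basic type II chain, so that epithelia express them in couples. Krt8 (type II) and Krt18 (type I) form the filaments of simple, single-layered epithelia, with Krt7 and Krt19 added in ducts and in several linings, including the mesothelium that covers the lung. Krt5 (type II) and Krt14 (type I) form the filaments of basal cells in stratified epithelia, in the airway and in the mammary gland. Fibroblasts and smooth muscle cells rely on vimentin and desmin instead, although cultured mesenchymal cells can carry low levels of simple keratins.

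In the mouse genome (GRCm38, GENCODE M21) the type II members and Krt18 lie together on chromosome 15. Krt8 (ENSMUSG00000049382) spans chr15:101996698-102004482 on the minus strand, and Krt18 (ENSMUSG00000023043), the one type I gene within the type II cluster, begins 23.7 kb away at chr15:102028180-102032027 on the plus strand. Krt7 (ENSMUSG00000023039) lies at chr15:101411043-101430313 on the plus strand and Krt5 (ENSMUSG00000061527) at chr15:101707070-101712898 on the minus strand. Krt19 (ENSMUSG00000020911, chr11:100140810-100148665) and Krt14 (ENSMUSG00000045545, chr11:100203162-100207548) are neighbours in the type I cluster of chromosome 11, 54.5 kb apart and both on the minus strand. All 6 are protein-coding, and their FPKM values refer to their exons.

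The promoters of Krt8, Krt18 and Krt7 are shown because these members had the most similar levels across the libraries. Each is the 250 bases before the RefSeq transcription start on GRCm38.p6, at chr15:102004343-102004592 (minus strand), chr15:102027966-102028215 (plus strand) and chr15:101412153-101412402 (plus strand). Capitals mark CAGGTG, the E-box letters bound by zinc-finger repressors and other factors, and GGGCGG, the GC box, each searched on both strands.
Krt8: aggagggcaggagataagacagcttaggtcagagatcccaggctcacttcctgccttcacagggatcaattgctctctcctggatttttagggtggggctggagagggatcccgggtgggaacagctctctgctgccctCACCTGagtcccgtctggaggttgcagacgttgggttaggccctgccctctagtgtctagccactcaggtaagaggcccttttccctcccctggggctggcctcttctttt
Krt18: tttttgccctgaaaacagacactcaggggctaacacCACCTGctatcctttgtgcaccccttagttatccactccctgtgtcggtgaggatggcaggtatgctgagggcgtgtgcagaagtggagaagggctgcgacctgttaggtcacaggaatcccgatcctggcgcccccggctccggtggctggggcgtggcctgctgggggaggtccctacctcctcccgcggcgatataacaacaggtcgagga
Krt7: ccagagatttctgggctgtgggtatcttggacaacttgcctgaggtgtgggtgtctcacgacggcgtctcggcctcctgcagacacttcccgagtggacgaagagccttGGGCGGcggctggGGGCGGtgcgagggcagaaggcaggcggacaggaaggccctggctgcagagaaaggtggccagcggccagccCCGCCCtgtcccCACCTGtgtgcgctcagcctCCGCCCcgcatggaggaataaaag
The E-box letters stood once in each of these promoters and once in that of Krt5, but not in that of Krt14, whereas 17.2% of all 32851 RefSeq promoters of the same length held them. Krt7 held the GC box 4 times, and the other members with a promoter entry not at all, against 32.7% of all promoters. The TATA box (TATAAA, 12.4% of all promoters), the AP-1 site (TGANTCA, 6.7%) and the CCAAT box (CCAAT, 33.8%) were not found in these windows for any of the 5 members with a promoter entry. The GC content was 58.0% for Krt8, 60.4% for Krt18 and 66.0% for Krt7, compared with 49.6% for Krt14, 56.0% for Krt5 and a median of 52.4% over all promoters. GENCODE places the starts of Krt8, Krt18, Krt7 and Krt14 further upstream than RefSeq, so that the windows rest on the RefSeq starts alone. The windows of Krt7 and Krt14 lie wholly within the GENCODE spans of these genes. No difference between the promoters of the members is therefore read from these windows.

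The deposited values were FPKM, that is, fragments scaled to gene length in kilobases and to the library total. This lets genes of different length be set side by side as far as the length used fits the transcripts present. In GENCODE the exons of Krt7 cover 7049 bases over 5 transcripts, beside 1958 bases for Krt8. The length used in counting is not given. The order of levels, the type II sums and the type I to type II ratio depend on it for Krt7. The spacing of low values gave estimated depths of 14.8 to 20.8 mega-fragments per library, at which Krt18 in A-LMSC replicate 1 rested on about 74.9 fragments. Libraries of the same stage correlated at 0.977 to 0.992 across genes and libraries of different stages at 0.966 to 0.987, and none was left out. All 16 mesenchymal genes of a marker list passed the filter used for testing, an average over the 6 libraries of 1 FPKM or more. The filter does not tell cell types apart, as 12 of 14 mesothelial and 8 of 9 smooth muscle genes passed it too. Vim ranged from 296 to 366 FPKM, Col1a1 from 761 to 1472 FPKM, and the smooth muscle actin gene Acta2 from 4986 to 6311 FPKM. The keratins stood far below these. Of 51 keratin genes listed, 23 were at 0 in every library, 42 stayed below 0.5 FPKM in every library, and only 6 had a mean of at least 1 FPKM. These were Krt19, Krt18, Krt8, Krt80, Krt20 and Krt7, so that 4 of the 6 members passed the filter and Krt14 and Krt5 did not. The members together took 67.8 to 84.2% of the summed FPKM of all keratins.

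Krt8, the type II partner of Krt18, stood at 0.824 and 2.41 FPKM at the adenoma stage, 3.94 and 8.68 at the pre-metastatic stage, and 2.91 and 10.4 at the metastatic stage. Neither A-LMSC library reached any of the 4 later ones, and replicate 2 lay above replicate 1 at each stage. The means were 1.62 ± 1.12, 6.31 ± 3.36 and 6.67 ± 5.31 FPKM (SD, n = 2 per stage), that is 3.91-fold higher in PM-LMSCs and 4.13-fold higher in M-LMSCs, both relative to A-LMSCs. On the log2(FPKM + 1) scale, which understates changes of low genes, the differences were 1.47 and 1.42 (SE 0.57 each). The PM-LMSC and M-LMSC ranges overlapped, and M-LMSCs differed from PM-LMSCs by -0.05. Replicate 2 exceeded replicate 1 by 2.92-fold, 2.21-fold and 3.58-fold at the successive stages, which is nearly as large as the difference between stages. Within replicate 1 alone Krt8 was higher than in A-LMSCs by 1.44 (PM-LMSCs) and 1.10 (M-LMSCs), and within replicate 2 by 1.51 and 1.75. The M-LMSC value depended on the library, at 2.20 without M-LMSC replicate 1 and 0.65 without M-LMSC replicate 2.

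Krt18, the type I partner of Krt8, followed the same course at 2.50 and 3.10 FPKM early (A-LMSCs), 5.94 and 9.22 in PM-LMSCs, and 5.87 and 10.2 in M-LMSCs. Again the later stages did not overlap with A-LMSCs and overlapped with each other. The means were 2.80 ± 0.425, 7.58 ± 2.31 and 8.02 ± 3.03 FPKM, 2.71-fold and 2.86-fold higher than in A-LMSCs. On the log2 scale Krt18 was higher by 1.15 and 1.21 (SE 0.28 each), while M-LMSCs and PM-LMSCs differed by 0.06. Replicate 2 was again the higher one at each stage, by 1.24-fold, 1.55-fold and 1.73-fold, a smaller gap than for Krt8. The ratio of Krt18 to Krt8 was 3.04 and 1.29 in A-LMSCs, 1.51 and 1.06 in PM-LMSCs, and 2.02 and 0.975 in M-LMSCs, so that the pair was closest to even in replicate 2 of the later stages. Their log2 levels correlated at 0.96 over the 6 libraries.

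Krt7, a type II keratin of ducts and of mesothelium, was lower but had the same shape, with 0.804 and 0.944 FPKM in the A-LMSC pair, 1.57 and 3.85 in the PM-LMSC pair, and 1.20 and 3.89 in the M-LMSC pair. The later libraries all lay above A-LMSCs, but the replicate 1 libraries only slightly. The means of 0.874 ± 0.0992, 2.71 ± 1.61 and 2.54 ± 1.90 FPKM corresponded to 3.10-fold and 2.91-fold higher levels. On the log2 scale the differences from A-LMSCs were 0.91 and 0.81 (SE 0.42 each), made up of 0.51 and 0.29 within replicate 1 and 1.32 and 1.33 within replicate 2. Leaving out PM-LMSC replicate 1 or 2 gave 1.37 or 0.45 for PM-LMSCs, and leaving out M-LMSC replicate 1 or 2 gave 1.38 or 0.23 for M-LMSCs. Krt7 correlated with Krt8 at 0.96 and with Krt18 at 0.92, where the points share their libraries and the difference between the replicate numbers.

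Krt19, the smallest type I keratin, which lacks most of the tail found in other keratins, ran the other way. It stood at 13.8 and 17.3 FPKM at the adenoma stage, 8.09 and 9.28 at the pre-metastatic stage, and 4.92 and 4.49 at the metastatic stage. The levels went down stepwise with no overlap between any of the stages, and the replicates lay close together. The means were 15.6 ± 2.48, 8.68 ± 0.840 and 4.71 ± 0.302 FPKM, so that A-LMSCs were 1.80-fold above PM-LMSCs and 3.31-fold above M-LMSCs, and PM-LMSCs 1.85-fold above M-LMSCs. On the log2 scale the differences were -0.77 (PM-LMSCs against A-LMSCs), -1.53 (M-LMSCs against A-LMSCs) and -0.76 (M-LMSCs against PM-LMSCs), each with an SE of 0.15. They had the same sign within replicate 1 (-0.71, -1.32 and -0.62) and within replicate 2 (-0.83, -1.74 and -0.90). The values rested on about 535 and 563 estimated fragments in A-LMSCs and on about 151 and 138 in M-LMSCs. Unlike Krt8, Krt18 and Krt7, Krt19 was not consistently higher in replicate 2, with ratios of replicate 2 to replicate 1 of 1.25, 1.15 and 0.913.

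**Figure D1:**
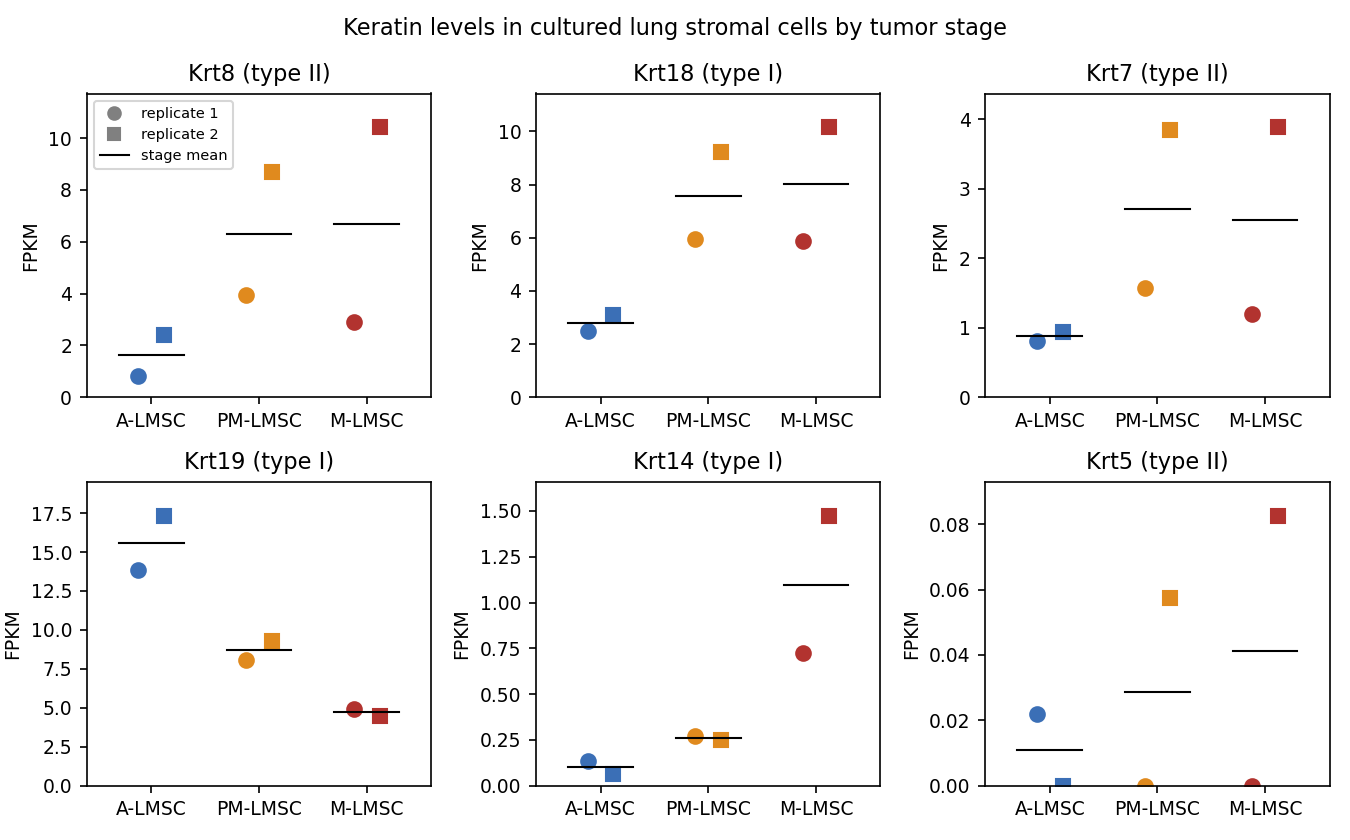
FPKM of the 6 keratins in each library (circles, replicate 1; squares, replicate 2; lines, mean of the 2 libraries of a stage), with a separate axis from 0 for each gene. Krt8, Krt18 and Krt7 lie lowest in A-LMSCs and higher in replicate 2, Krt19 goes down stepwise from 17.3 to 4.49 FPKM, and Krt14 and Krt5 lie near 0 in A-LMSCs.

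The basal keratins were close to the limit of detection. Krt14 was at 0.136 and 0.0650 FPKM early (A-LMSCs), 0.269 and 0.251 in PM-LMSCs, and 0.722 and 1.47 in M-LMSCs, which corresponded to 5 and 2, 7 and 7, and 21 and 43 fragments. Both M-LMSC libraries lay above the other 4, and the stages did not overlap. The means of 0.101 ± 0.0505, 0.260 ± 0.0133 and 1.10 ± 0.532 FPKM put M-LMSCs 10.9-fold above A-LMSCs and 4.22-fold above PM-LMSCs. In the fit without a filter on low values the log2 difference between M-LMSCs and A-LMSCs was 0.91 (SE 0.17), and 2.53 with a pseudocount of 0.1 in place of 1. It was 1.17 without M-LMSC replicate 1 and 0.65 without M-LMSC replicate 2. Krt5, the type II partner of Krt14, was at 0.0219 and 0 FPKM in the A-LMSC pair, 0 and 0.0575 in the PM-LMSC pair, and 0 and 0.0826 in the M-LMSC pair. This amounted to at most 3 fragments in any library, and no stage difference was detectable at this depth. Krt14 was thus not matched by an equal level of its usual partner in any library.

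Among the members 4 of 6 (Krt8, Krt18, Krt7 and Krt14) had all 4 later-stage libraries above both A-LMSC libraries, a pattern held by 9.93% of the genes that were above 0 somewhere. Krt19 was the 1 member with the stepwise downward pattern, which 3.6% of the tested genes had. Since the members were chosen for these levels, nothing is read from these counts. Krt8, Krt18 and Krt7 had replicate 2 above replicate 1 at every stage, as did 21.2% of the tested genes.

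Krt19 can pair with Krt8 as Krt18 does, and its level was therefore set against both within each library. The difference in log2(FPKM + 1) between Krt19 and the mean of Krt8 and Krt18 was 2.55 and 2.29 in A-LMSCs, 0.63 and 0.05 in PM-LMSCs, and 0.19 and -1.04 in M-LMSCs. All 4 later-stage differences lay below both A-LMSC differences, while PM-LMSCs and M-LMSCs overlapped. The stage means were 2.42 ± 0.18, 0.34 ± 0.42 and -0.42 ± 0.87, a change of -2.08 from A-LMSCs to PM-LMSCs and of -2.85 to M-LMSCs, beside a pooled SD of 0.57. The change from PM-LMSCs to M-LMSCs was -0.76. It was -1.38 without M-LMSC replicate 1 and -0.15 without M-LMSC replicate 2, and the change from A-LMSCs to M-LMSCs was -3.46 and -2.23 without these libraries.

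Put as ratios, Krt19 was 16.8 and 7.20 times Krt8 in A-LMSCs, 2.06 and 1.07 times in PM-LMSCs, and 1.69 and 0.431 times in M-LMSCs. The order of levels was Krt19, Krt18, Krt8, Krt7, Krt14 and Krt5 in every A-LMSC and PM-LMSC library. In M-LMSC replicate 1 Krt18 stood above Krt19, and in M-LMSC replicate 2 Krt8 came first and Krt18 second. Among neighbours in this order, the ranges over the 2 libraries of a stage overlapped for Krt8 and Krt7 in A-LMSCs. In PM-LMSCs those of neighbours overlapped for Krt19 and Krt18 and for Krt18 and Krt8. In M-LMSCs they overlapped for Krt8 with each of Krt18, Krt19 and Krt7, and for Krt7 and Krt14.

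The balance of type I and type II transcripts among the members shifted accordingly. The type I members (Krt18, Krt19 and Krt14) summed to 16.5 and 20.5 FPKM at the adenoma stage, 14.3 and 18.7 at the pre-metastatic stage, and 11.5 and 16.1 at the metastatic stage, with overlapping ranges. The type II members (Krt8, Krt7 and Krt5) summed to 1.65 and 3.35, 5.50 and 12.6, and 4.12 and 14.4 FPKM, with no overlap between A-LMSCs and the later stages. The ratio of type I to type II members was 8.05 ± 2.73 in A-LMSCs, 2.04 ± 0.785 in PM-LMSCs and 1.96 ± 1.19 in M-LMSCs. Type I members exceeded type II members in every library, least in M-LMSC replicate 2 at 1.12. The sums leave out the type II keratin Krt80 and the type I keratin Krt20. Krt80 alone, at 4.49 and 3.48 FPKM in A-LMSCs, lay above the type II sum of each of these libraries. The ratios, above all that of A-LMSCs, therefore hold for the members and not for all keratins. Krt19 made up 84.0 and 84.6% of the type I sum in A-LMSCs, 56.6 and 49.5% in PM-LMSCs, and 42.7 and 27.9% in M-LMSCs.

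**Figure D2:**
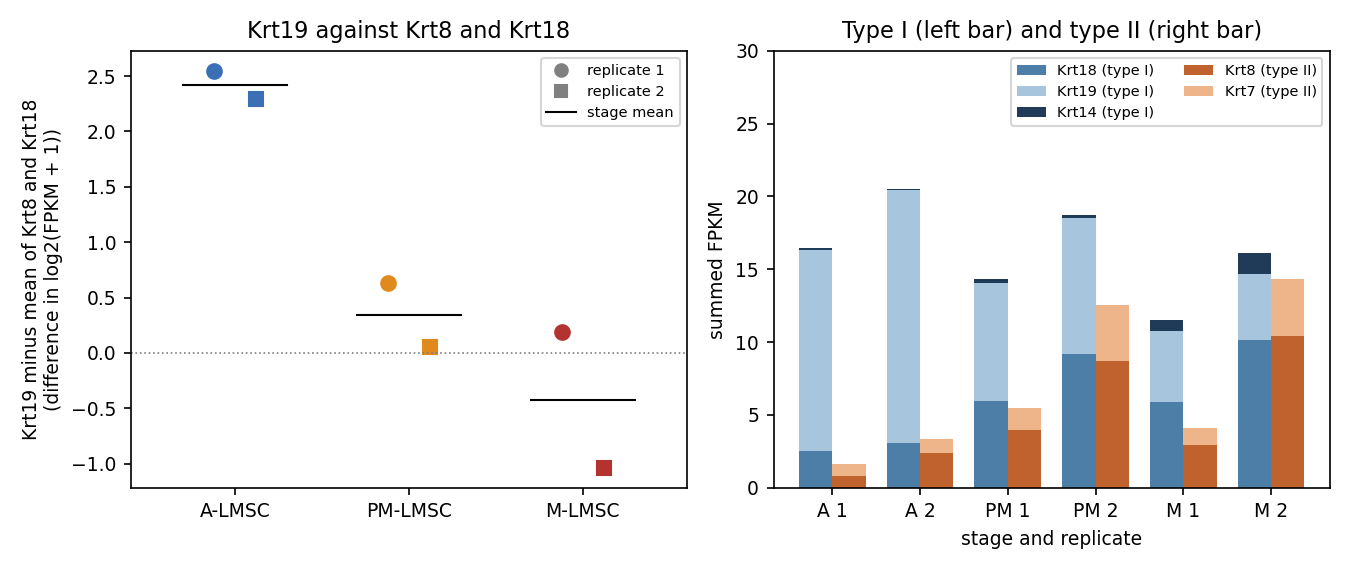
Left, difference in log2(FPKM + 1) between Krt19 and the mean of Krt8 and Krt18 in each library (circles, replicate 1; squares, replicate 2; lines, stage means), which goes from 2.42 in A-LMSCs to -0.42 in M-LMSCs. Right, FPKM of the type I members (left bar) and type II members (right bar) stacked by gene in each library, where the Krt19 segment shrinks while the Krt8 and Krt18 segments are larger at the later stages, and Krt5 is too low to be drawn.

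The other keratins were read from lists of simple and of stratified keratins. Tests across genes used limma on log2(FPKM + 1) over all 10279 genes that passed the filter, with Benjamini-Hochberg adjustment, and 4 genes (0.0389%) passed for PM-LMSCs against A-LMSCs, 7 genes (0.0681%) for M-LMSCs against A-LMSCs, and 3 genes (0.0292%) for M-LMSCs against PM-LMSCs. At an unadjusted p under 0.05 these comparisons had 671 genes (6.53%), 1504 genes (14.6%) and 919 genes (8.94%). With the replicate number as a block in the fit, 30 genes (0.292%), 403 genes (3.92%) and 43 genes (0.418%) were called. No gene of any list used here was called without the block.

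Krt80 and Krt20 were the other keratins with a mean of at least 1 FPKM, and neither passed the test in any comparison, with or without the block. Krt80 stood at 4.49 and 3.48 FPKM early (A-LMSCs), 3.01 and 2.63 in PM-LMSCs, and 2.79 and 2.72 in M-LMSCs, with both A-LMSC libraries highest (log2 difference of -0.40 between M-LMSCs and A-LMSCs; limma adjusted p 0.277, and 0.0997 with the block). Krt20, a keratin of intestinal and urothelial surface cells, ranged from 1.22 to 3.48 FPKM with overlapping stages. None of the 18 stratified and stress keratins found passed the filter. Krt10, of the upper epidermis, ranged from 0.464 to 0.840 FPKM, and Krt13, of mucosal linings, from 0.0306 to 0.290 FPKM.

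Both M-LMSC libraries lay above the other 4 for 1 of 4 other simple keratins and 2 of 18 stratified ones, as they did for Krt14 and for 10.7% of all genes above 0 in at least 1 library, so that the count is near the background. Krt17, a type I keratin of basal and wounded epithelium, was at 0, 0, 0 and 0.0406 FPKM in the 4 earlier libraries, and at 0.312 and 0.738 FPKM in M-LMSCs (8 and 19 fragments). Krt15, another basal type I keratin, had the same order at 0.115 FPKM or less. Krt23, a type I simple keratin, reached 0.386 and 0.347 FPKM in the M-LMSC pair and no more than 0.123 FPKM in the other libraries. Unlike that of Krt14, the level of Krt23 did not set PM-LMSCs above A-LMSCs. All of these were too low to be tested.

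The genes most like Krt19 over the 6 libraries were sought among the other 10278 tested genes by the Pearson correlation of log2(FPKM + 1). They were Ppp1r9b, which encodes the scaffold protein spinophilin (r = 0.995), Ltbp1, which encodes a latent TGF-beta binding protein (0.993), the ceramide synthase gene Cers2 (0.991), Gm27021 (0.989) and the transglutaminase gene Tgm2 (0.989). Tgm2 went from 374 and 420 FPKM in A-LMSCs over 316 and 332 FPKM in PM-LMSCs to 234 and 237 FPKM in M-LMSCs, and Ltbp1 from 19.2 and 21.3 FPKM to 12.1 and 11.7 FPKM in M-LMSCs. Ppp1r9b had the same order of libraries over a far smaller range, from 32.2 to 28.7 FPKM. The points share their libraries, and these likenesses are a description.

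The genes most like the mean of Krt8 and Krt18 were Smpd3, which encodes a neutral sphingomyelinase (r = 0.994), the mesothelial genes Lrrn4 (0.992) and Upk3b (0.990), Tmem108 (0.989) and Gas6 (0.987), which encodes a ligand of the TAM receptor kinases. Smpd3 stood at 2.37 and 4.75 FPKM in the A-LMSC pair, 10.3 and 20.1 in the PM-LMSC pair, and 6.40 and 23.4 in the M-LMSC pair. It thus had both features of Krt8, the low A-LMSCs and the higher replicate 2. Krt7 came at rank 50 of 10277 genes and Krt19 at rank 9670 (r = -0.674).

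Mesothelial cells normally express Krt8, Krt18, Krt7 and Krt19, and a list of 14 mesothelial genes was therefore set beside the keratins. Of the 12 that were tested, 9 correlated with the mean of Krt8 and Krt18 at r above 0.9, compared with 1.49% of all tested genes, with a median r of 0.94 and a range from 0.213 to 0.992. The other 2 were too low to be tested and differed from each other. Calb2 was highest in A-LMSCs (0.201 and 0.360 FPKM), and at no more than 0.189 FPKM elsewhere. Its r was -0.64 with the mean of Krt8 and Krt18 and 0.86 with Krt19. Muc16 had r = 0.94 with the mean of Krt8 and Krt18. Upk3b, a uroplakin gene, stood at 15.6 and 27.4 FPKM at the adenoma stage, 37.9 and 67.6 at the pre-metastatic stage, and 34.2 and 96.7 at the metastatic stage. Msln, which encodes the surface protein mesothelin, stood at 8.87 and 12.7, 33.8 and 47.7, and 12.6 and 48.2 FPKM. The highest libraries were those of replicate 2 at the later stages, as for Krt8, and the lowest those of A-LMSCs, except that M-LMSC replicate 1 lay level with them for Msln. Against Krt19 the correlations were -0.659 for Upk3b and -0.491 for Msln. Pdpn, which encodes podoplanin, was abundant at 96.5 to 123 FPKM (r = 0.88 with the mean of Krt8 and Krt18). Aldh1a2, a retinaldehyde dehydrogenase of mesothelium and other mesenchyme, at 80.7 to 131 FPKM, had the lowest correlation with Krt8 and Krt18 among the 12 tested genes of the list.

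The mesothelial list had a median log2 difference of 0.91 between PM-LMSCs and A-LMSCs and 1.09 between M-LMSCs and A-LMSCs, beside 0.01 and 0.03 over all tested genes, with 11 of 12 genes positive in each. No gene of the list passed the test without the block, although 8 and 7 of 12 had an unadjusted p under 0.05. With the replicate block 2 of 12 rose in PM-LMSCs and 6 of 12 in M-LMSCs, where 0.263% and 2.28% of all tested genes were called higher. Those that rose at both later stages were Lrrn4, a leucine-rich repeat membrane protein gene (1.34 and 1.36 on the log2 scale; limma adjusted p 0.0417 and 0.0171 with the block, 0.508 and 0.192 without), and Bnc1, a zinc-finger gene (1.07 and 1.10; 0.0369 and 0.0157 with the block, 0.259 and 0.096 without). Upk3b, Upk1b, Gpm6a and the transcription factor gene Wt1 passed the blocked test in M-LMSCs, rising by 1.43, 1.07, 1.32 and 1.10 on the log2 scale (limma adjusted p 0.0171, 0.0384, 0.0353 and 0.022), and none of them was called between M-LMSCs and PM-LMSCs. The summed FPKM of the list was 338.5 and 422 in A-LMSCs, 544 and 711.5 in PM-LMSCs, and 430.5 and 796 in M-LMSCs. The part of mesothelial cells in the levels of Krt8, Krt18 and Krt7 was not tested, and in bulk cultures more cells of a type and more RNA per cell cannot be told apart.

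**Figure D3:**
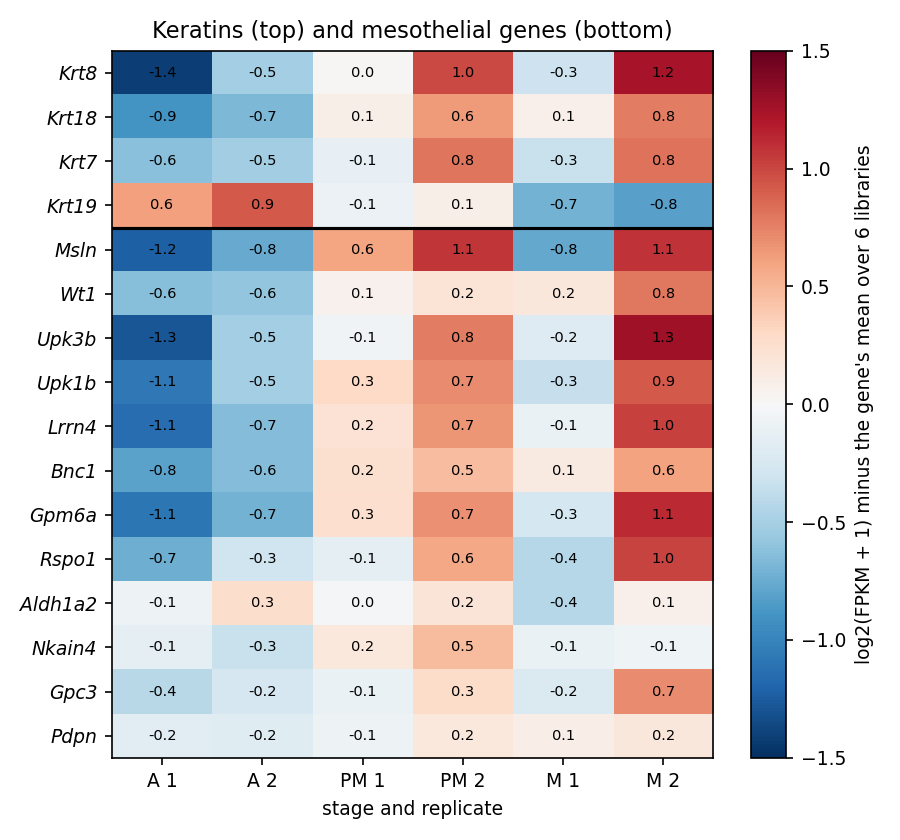
Log2(FPKM + 1) minus the mean of the gene over the 6 libraries, for 4 keratins (above the line) and the 12 tested mesothelial genes (below it), with stage and replicate along the x axis. Krt8, Krt18 and Krt7 share the low A-LMSC columns and high replicate 2 columns with Upk3b, Lrrn4 and others, whereas Krt19 is high in A-LMSCs and low in M-LMSCs.

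Most markers of epithelial cells were low. Of 18 genes of epithelial adhesion and identity, 3 were tested and 15 stayed below 1 FPKM in every library. The tested ones were Cdh3, which encodes P-cadherin, the protease inhibitor gene Spint2 and the splicing regulator gene Esrp2, and their median log2 differences from A-LMSCs were 0.99 in PM-LMSCs and 0.81 in M-LMSCs. Spint2 stood at 2.27 and 2.90 FPKM early (A-LMSCs), 5.29 and 6.95 in PM-LMSCs, and 4.76 and 9.01 in M-LMSCs. It correlated with the mean of Krt8 and Krt18 at 0.98 and was the 1 gene of the list that passed the test with the block, in M-LMSCs (1.09 on the log2 scale; limma adjusted p 0.0208, and 0.156 without the block). Cdh3 was at 7.64 and 10.0, 16.6 and 26.1, and 10.1 and 25.5 FPKM, again highest in replicate 2 of the later stages. Esrp2 ranged from 2.01 to 3.11 FPKM.

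The defining adhesion genes were at or near 0 in A-LMSCs and PM-LMSCs. Epcam was listed at 0 in all 4 of these libraries and at 0.326 and 0.473 FPKM in M-LMSCs. Cdh1, which encodes E-cadherin, was at no more than 0.0369 FPKM in them and at 0.231 and 0.394 FPKM in M-LMSCs. The tight junction genes Cldn3 (0.624 and 0.957 FPKM in M-LMSCs, at most 0.350 elsewhere) and Cldn4 (0.533 and 0.597 FPKM, at most 0.149 elsewhere) and the matriptase gene St14 (0.218 and 0.363 FPKM, at most 0.198 elsewhere) had the same order. In all, 9 of the 18 genes had both M-LMSC libraries above the other 4, compared with 10.7% of genes above 0 in at least 1 library. The level of Krt14 was highest in the same libraries, and the part of epithelial cells in it was not tested.

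**Figure D4:**
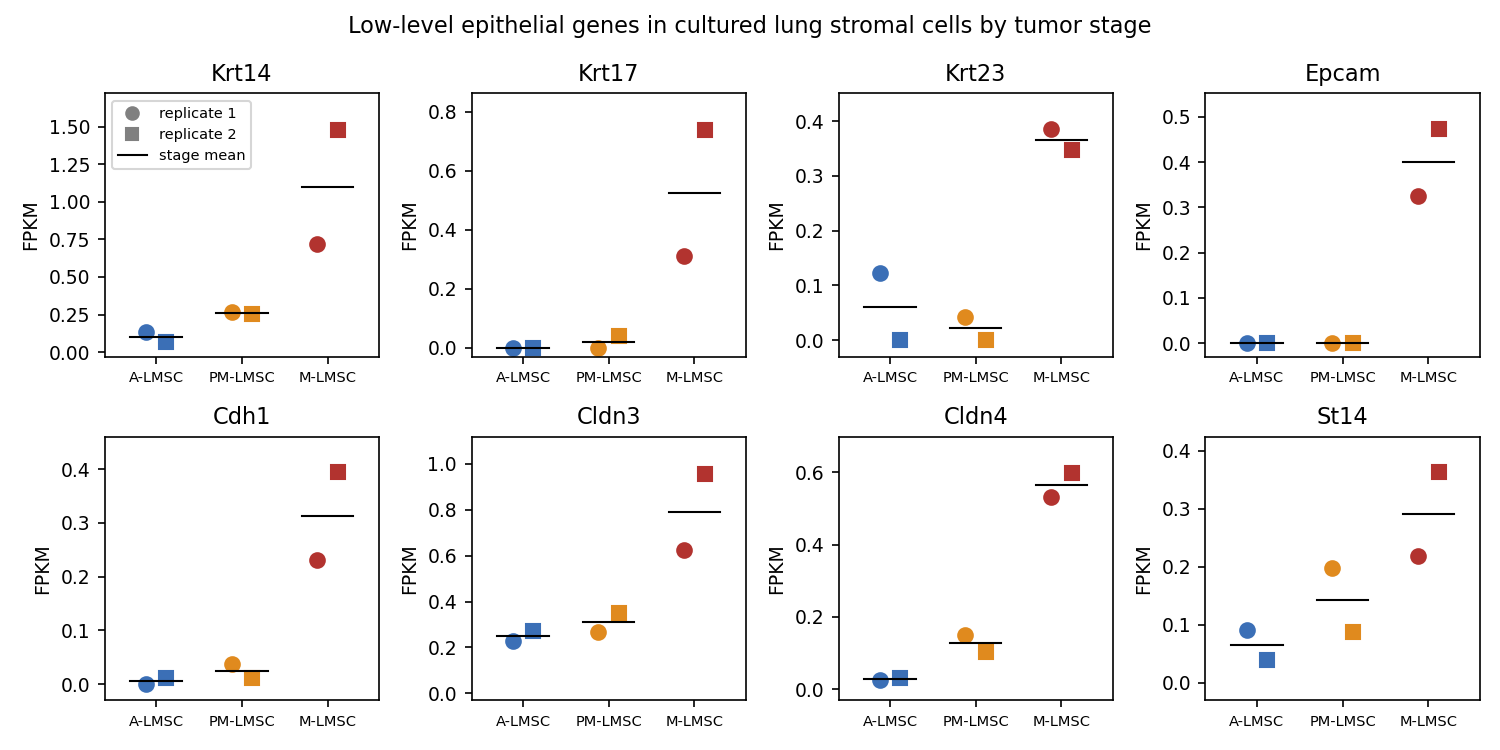
FPKM of 8 epithelial genes of low level in each library (circles, replicate 1; squares, replicate 2; lines, stage means), with a separate axis for each gene. Both M-LMSC points lie above the other 4 in every panel, and the genes other than Krt14 were picked for this pattern. All points stay below 1.47 FPKM except Krt14 replicate 2, which is at that value.

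Genes of particular epithelia were mostly at or near 0. Of 14 lung epithelial genes only the water channel gene Aqp5 was tested, at 5.04 to 9.02 FPKM with overlapping stages, and its correlation with the mean of Krt8 and Krt18 was 0.11. Of 16 mammary epithelial genes only the receptor gene Erbb2 was tested, at 5.41 to 7.06 FPKM, and 3 were at 0 in every library. The summed FPKM of the mammary list was 8.54 and 8.37 in A-LMSCs, 7.33 and 7.49 in PM-LMSCs, and 7.20 and 8.59 in M-LMSCs. Of 10 basal epithelial genes 2 were tested and neither was called with or without the block, and Trp63, which encodes the master factor of basal cells, was listed at 0 in every library. Itgb4, a hemidesmosomal integrin gene, had the pattern closest to Krt8 and Krt18 among the named genes of this list (r = 0.90), at 0.432 and 0.533 FPKM in the A-LMSC pair, 1.02 and 1.25 in the PM-LMSC pair, and 0.531 and 1.09 in the M-LMSC pair, but did not pass the filter. Itga6, an integrin gene used to mark basal cells, ranged from 2.34 to 3.71 FPKM.

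The partners that anchor keratin filaments were present in part. Of 17 desmosome and plakin genes 6 were tested, with a median log2 difference of 0.27 in PM-LMSCs and 0.12 in M-LMSCs, and none was called with or without the block. The other 11 stayed below 1 FPKM in every library, among them the desmoplakin gene Dsp at no more than 0.169 FPKM. Jup, which encodes plakoglobin, was the one closest to the keratins (r = 0.93 with the mean of Krt8 and Krt18), at 10.6 and 9.92 FPKM in the A-LMSC pair, 13.9 and 16.8 in the PM-LMSC pair, and 11.2 and 18.8 in the M-LMSC pair. Plec, which encodes the linker plectin, was the one closest to Krt19 (r = 0.97), at 29.5 and 29.0, 26.3 and 26.0, and 22.2 and 22.2 FPKM. Perp, a desmosomal membrane protein gene, and the plakophilin gene Pkp2 were highest in both PM-LMSC libraries, at 69.3 and 49.2 FPKM and at 8.70 and 7.73 FPKM.

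Of 14 other intermediate filament genes 7 were tested, and the other 7 stayed below 1 FPKM in every library. Vim stood at 366 and 356 FPKM at the adenoma stage, 353 and 350 at the pre-metastatic stage, and 296 and 346 at the metastatic stage. Des, the muscle filament gene desmin, was at 141.7 and 153, 311 and 299, and 147 and 225 FPKM, and its log2 difference of 1.05 between PM-LMSCs and A-LMSCs was not called (limma adjusted p 0.315, and 0.0609 with the block). Nes, the nestin gene by which LMSCs are recognised, ranged from 14.6 to 25.0 FPKM with overlapping stages. The lamin gene Lmnb2 was the 1 of 7 tested filament genes that passed the blocked test, falling in M-LMSCs (-0.70 on the log2 scale; limma adjusted p 0.0429, and 0.144 without the block), at 5.27 and 6.28 FPKM in the A-LMSC pair and 2.66 and 3.76 FPKM in the M-LMSC pair. Its correlation with Krt19 was 0.90, and 1.64% of all tested genes were called lower in that comparison with the block. The other lamin genes Lmna (79.5 to 129 FPKM) and Lmnb1 (14.8 to 26.3 FPKM) were not called. Sync, which encodes syncoilin, was the filament gene closest to Krt8 and Krt18 (r = 0.93), at 2.53 and 2.71 FPKM in A-LMSCs and 3.40 to 4.36 FPKM in the later libraries, and was not called (log2 difference of 0.53 between PM-LMSCs and A-LMSCs; limma adjusted p 0.449, and 0.114 with the block).

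Haematopoietic transcripts also differed between stages. The summed FPKM of 13 genes was 138 and 129 in A-LMSCs, 174 and 80.0 in PM-LMSCs, and 413 and 301 in M-LMSCs, carried mostly by the lysozyme gene Lyz2, and Ptprc, which encodes CD45, was at no more than 0.0987 FPKM in any library. With the block 6 of 7 tested genes rose in M-LMSCs against A-LMSCs, among them Tyrobp (1.32 on the log2 scale; limma adjusted p 0.0157), and none without it, although all 7 had an unadjusted p under 0.05. In that comparison 2.28% of all tested genes were called higher with the block. Both M-LMSC libraries were highest for 10 of the 13 genes, beside 10.7% of genes above 0 in at least 1 library, as for Krt14, and Krt19 was lowest in the same libraries. The summed level was higher in replicate 1 at every stage, opposite to Krt8, Krt18 and Krt7. Endothelial genes were low, with 8 of 9 below 1 FPKM in every library, and Kdr, the VEGF receptor gene, rose in M-LMSCs with the block (0.61 on the log2 scale; limma adjusted p 0.0285). Of 16 mesenchymal genes the proteoglycan genes Dcn and Lum rose in M-LMSCs with the block, by 1.13 (limma adjusted p 0.0239) and 1.90 (0.0419). None of the 8 smooth muscle genes tested was called with or without the block. The part of these other cell types in the keratin levels was not tested.

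Some sequence features of the members bear on how well their reads can be assigned. Krt8 has a pseudogene copy, Krt8-ps, with 98.6% identity over 941 bases, which was not analysed here, so that the level of Krt8 is uncertain to the extent that reads were shared with it. No other member had a copy of at least 95% identity over 200 bases. The nearest relatives were Gm5200 for Krt18 (90.5%), Krt16 for Krt14 (87.4%) and Krt6b for Krt5 (87.7%). Exons of Krt8, Krt7 and Krt5 overlap genes of the opposite strand over 101, 77 and 129 bases, and whether strand was used in counting is not given in the sources used here. Krt18, Krt19 and Krt14 have no such overlap.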

How the data were processed

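RNA-seq values of 6 LMSC libraries (2 per stage) were used. The authors deposited FPKM values for 34745 genes, 1 column per library. The submitters' processing notes name TopHat2 2.0.9 and the mm10 build, and the counting tool and annotation are not given in the sources used here. Each column was matched to its sample by label. The members and gene lists were chosen with earlier results of these data known. One gene of the basal epithelial list is not reported here and was left out of its counts.

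Of the identifiers, 34267 were found in GENCODE M21 (GRCm38) and 478 were not. Of the gene names 57 were repeated, and the first identifier was used. Depths were estimated from the step between low FPKM values of single-transcript genes, of which 96.3 to 97.0% were whole multiples of 1 fragment within 0.1. Counts were not modelled, as the table holds FPKM. Fragment numbers for genes are therefore estimates that cover counting error only, and depth and the number of libraries limit the precision near 1 FPKM.

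Genes averaging 1 FPKM or more over all libraries (10279) were fitted as log2(FPKM + 1) with limma 3.58.1 in R 4.3.3 (lmFit, eBayes with trend, 1 mean per stage), with a Benjamini-Hochberg threshold of 0.05. Keratin members were described without a test. Ratios, correlations and figures used Python 3.11.15 with numpy 2.4.6, pandas 2.3.3 and matplotlib 3.10.9, near copies blastn 2.17.0, and promoter sequences RefSeq (5 of 6 members had an entry; Krt19 did not).

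The replicate numbers come from the labels. Deviations from the stage means correlated between libraries of the same number at 0.238 (A-LMSC and PM-LMSC), 0.307 (A-LMSC and M-LMSC) and 0.491 (PM-LMSC and M-LMSC). A fit with the replicate block, which treats the numbers as pairing the libraries, was therefore added. The labels do not say whether libraries of the same number share a batch. The block thus rests on correlations seen in these same data, and calls that pass only with it depend on this choice.

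Named were the 6 members and, from each list, genes called in any comparison with or without the block, genes with both libraries of 1 stage above the other 4 and a value of at least 0.3 FPKM, and the 3 genes of highest mean; other keratins and filament genes averaging 1 FPKM or more; and the 5 genes most correlated with Krt19 and with the mean of Krt8 and Krt18. Not every gene that met this rule is described, and Trp63, Ptprc, Msln and Krt20 are named beside them as defining markers or by their mean. Dsp and Muc16 are also named, as genes of their lists too low to be tested. Alternatives were a pseudocount of 0.1, no filter, quantile normalization, centering on library medians, only the stages compared, the replicate block, and each library left out. The fit was also run on simulated data with the same spread for every gene and no shared deviation by replicate number. These settings differ from the data, so that the run does not bear on the calls made here.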

Additional observations from a re-analysis of the deposited data

How the results depend on the processing

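Of 186 recalculated log2 differences of the members, 176 kept their sign and 145 moved by less than 1 SD. For the later stages against A-LMSCs all 110 kept their sign when Krt5 was set aside. Part of these could not change in this design. A log2 difference is the same with the replicate block, without a filter and with only the stages compared. It is also the same when a library of the third stage is left out. Krt8 stayed at 1.47 (PM-LMSCs against A-LMSCs) in all of these, so that the counts overstate how stable the values are. Krt7 moved to 1.40 and 1.23 with a pseudocount of 0.1. For Krt14 and Krt5, which did not pass the filter, only the pseudocount and the left-out libraries were recalculated, and the fits without a filter and with only the stages compared were not applied to the difference of Krt19 from Krt8 and Krt18. That difference changed by -2.38 to -1.79 (PM-LMSCs against A-LMSCs), -3.46 to -2.23 (M-LMSCs against A-LMSCs) and -1.38 to -0.15 (M-LMSCs against PM-LMSCs) when each library was left out.

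Genes called over the whole table depended on the fit, and the cause was not tested. With no filter there were 1 (PM-LMSCs against A-LMSCs) and 3 (M-LMSCs against A-LMSCs), and with only the stages compared 21 and 1. With the replicate block there were 30 and 403, and 43 for M-LMSCs against PM-LMSCs. Leaving out each library gave 1 to 28, 1 to 90 and 2 to 25. Of the genes of the 13 lists, 0 were called in each comparison by limma, but 2 and 1 (PM-LMSCs against A-LMSCs, M-LMSCs against PM-LMSCs) with only the stages compared, 2, 17 and 2 with the replicate block, and 0 to 3, 0 to 8 and 0 to 2 when each library was left out. The block changed no other call described.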

Other observations

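A few markers of other cell types were raised in 1 library alone. Ngfr, a basal and neural receptor gene, stood at 5.03 FPKM in M-LMSC replicate 1 and at no more than 1.11 FPKM elsewhere. The casein gene Csn3 stood at 1.22 FPKM in M-LMSC replicate 2, where Krt14 was also highest, and at no more than 0.0454 FPKM elsewhere. The surfactant gene Sftpc stood at 1.07 FPKM in A-LMSC replicate 2 and at no more than 0.301 FPKM elsewhere. These genes were named after their values were seen.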
